A study of Mus musculus with 17 samples.

Results

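Potassium channel genes are those whose mouse symbol begins with Kcn. Of 94 protein-coding Kcn genes in the GENCODE M21 annotation, all with a value in the deposited data, 77 reached at least 0.5 FPKM (fragments per kilobase of transcript and per unit of sequencing depth) in at least 3 of 16 distinct libraries, and these 77 are described here. Polyadenylated RNA of frontal cortex was sequenced from male mice of the FVB/N strain that carry parts of a Tet-off system. In that system a driver, labelled CamK after a kinase whose promoter is used for forebrain excitatory neurons, makes a transactivator that turns on a transgene for the microRNA miR-211, and doxycycline blocks the transactivator. The Ct group had the driver alone (labelled genotype CamK, 6 libraries), the dTg group had both transgenes (dTg-211, 7 libraries), and the dTgDox group had both transgenes and received doxycycline for 4 days (3 libraries). The driver is thus shared by all 3 groups, and no Ct library with doxycycline was analysed here, so doxycycline itself and loss of miR-211 cannot be told apart. The level of mature miR-211 was not measured in these libraries. A further sample with the PTRE-miR-211 transgene and no driver (NTg) had a file identical to that of dTg_1.

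A potassium channel lets potassium ions cross the membrane down their gradient, which pulls a neuron back toward rest, ends the action potential and sets how readily the cell fires again. Voltage-gated pore subunits (Kcna, Kcnb, Kcnc, Kcnd, Kcnh and Kcnq) open on depolarization. Silent modifiers (Kcnf, Kcng, Kcns and Kcnv) conduct nothing alone and change the pores they join, mainly those of the Kcnb subfamily. Auxiliary subunits (Kcnab, Kcne, Kcnip and Kcnmb) alter gating and trafficking. Ion-activated pores respond to intracellular calcium (Kcnma, Kcnn) or sodium (Kcnt), inward rectifiers (Kcnj) hold the resting potential and serve G protein and ATP signalling, and two-pore channels (Kcnk) carry leak current. Loss of function of several of these genes, among them Kcna1 and Kcnj10, is known to cause seizures, and the series title names epileptiform activity beside miR-211.

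Mature miR-211-5p is encoded in GRCm38.p6 at chr7:64205831-64205852 on the plus strand and shares its seed, bases 2 to 8, with miR-204-5p. The microRNA sequences come from RefSeq, with the seed in capitals. The 8mer AAAGGGAA, the complement of the seed followed by A, was searched on the sense strand of the 3'UTR of each gene, taken as the longest one annotated in GENCODE M21. Matches in other members, such as Kcnb2, Kcnk2 and Kcnma1, are not shown. The stretches below are the 30-base surroundings of matches in some members that differed between dTgDox and dTg at the threshold, so they were picked by that result (8mer in capitals).
miR-211-5p: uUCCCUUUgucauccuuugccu
miR-204-5p: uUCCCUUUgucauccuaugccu
Kcnab2: ggttcacatccAAAGGGAAatcactatgcc
Kcnh7: ttgctttccttAAAGGGAAttagaagtatt
Kcnk3: cagtaccatgaAAAGGGAAacctttcccct
Kcnk9: cagagctgtccAAAGGGAAaatagaggccc
Kcna2: cctcaaggatcAAAGGGAAtcgagatccca

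Of the 77 members, 10 held an 8mer (13%), against 7.53% of 14417 tested genes with an annotated 3'UTR. The 10 members with an 8mer had long 3'UTRs, with a median of 8057 bases against 1777 over all members. They included Kcna2 and Kcnb2, each with 2 matches, and Kcnab2, Kcnh7, Kcnj14, Kcnk2, Kcnk3, Kcnk9 and Kcnma1. In Kcnab2 the match lies at bases 111 to 118 of the 3'UTR, near the stop codon, and in Kcnk3 at bases 1751 to 1758 of 2434. A match is a description of the sequence and does not show that the microRNA binds there.

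Some libraries stood apart, and this bears on every result below. Across genes, log2 levels of the 15 libraries other than dTg_1 correlated at 0.937 to 0.967, while dTg_1 correlated with them at 0.864 to 0.879. Within the 15, Ct and dTg_2 to dTg_7 correlated with each other at 0.9525 to 0.9673, and the dTgDox libraries at 0.9636 to 0.9670. Between dTgDox and the Ct and dTg libraries the range was lower, 0.9367 to 0.9541. The 14 markers of cerebellar granule and Purkinje cells summed to 4392 FPKM in dTg_1 and to 151 to 258 FPKM in the 15 others, and all 14 were higher in dTg_1 than in any of them. Their mean log2 level was 7.70 in dTg_1, 2.83 in dTg_4 and 3.06 in dTg_7, and 2.02 to 2.27 in the remaining libraries. Cbln3, 1 of these markers, reached 4.72 FPKM in dTg_2 to dTg_7, against at most 0.290 in Ct and 0.413 in dTgDox. Excitatory cortical neuron markers summed to 242.0 FPKM in dTg_1 and to 614 to 885 in the others. The library labelled dTg_1 is described apart at the end, and the comparisons leave it out. In the 3 dTgDox libraries, the 9 markers of hippocampal CA pyramidal cells found in the files summed to 375 to 396 FPKM against 198 to 278 in Ct and dTg_2 to dTg_7, with Fibcd1 at 23.4 to 25.9 FPKM against 1.43 to 3.11. Of the 8 that passed the filter on low values, 4 were higher in dTgDox than in dTg and 0 lower. Of 10 dentate granule cell markers 6 were higher and 2 lower (Prox1 at 9.73 to 11.3 FPKM against 1.58 to 2.23). Oligodendrocyte markers summed to 2753 to 4139 FPKM against 984 to 2689 (2 of 10 higher, 0 lower), and GABA interneuron markers to 874 to 1083 against 1160.4 to 1517 (0 higher, 2 lower of 10). Of 10 excitatory cortical markers 2 were higher and 3 lower, and of 10 astrocyte markers 3 were higher and 1 lower. Of 10 microglial markers 3 were higher and 0 lower, and of 10 markers of endothelial and mural cells 0 were higher and 2 lower. Striatal markers were high in Ct_4, Ct_6, dTg_2, dTg_3 and dTg_6, and olfactory bulb markers in Ct_1, Ct_2, Ct_5 and dTg_3. Choroid plexus markers were highest in dTgDox_3. Of the 9 that passed the filter, 2 were higher in dTgDox than in dTg and 0 lower (Kl at 3.78 to 16.8 FPKM against 0.273 to 1.73). In that comparison 0 of 13 cerebellar markers were higher and 2 lower. Of 10 olfactory bulb markers 0 were higher and 1 lower, and of 10 striatal markers 0 were higher and 0 lower. Over all genes tested in that comparison, 9.59% were higher and 9.15% lower. Relative depth, estimated from low values, ranged from 0.789 to 1.09 of that of Ct_1. In bulk tissue, fewer cells of a type and less RNA per cell cannot be told apart. The labels do not say that libraries came from separate animals, and 3 dTg libraries (dTg_5, dTg_6 and dTg_7) carry the same number in their file headers, so p-values measure the spread between these libraries.

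The potassium channel family was broadly present, with 71 members at a mean of at least 1 FPKM over the 15 libraries, 38 at 10 or more, and 4 at 50 or more. Its median level was 9.75 FPKM, against 10.5 over all protein-coding genes tested. Among the most abundant were Kcnab2 at 193 FPKM, a beta subunit of Kcna channels, Kcnip2 at 60.9, a calcium-binding partner of Kcnd channels, and Kcnj4 at 59.7, a strong inward rectifier. Among pores, Kcnk1 led the two-pore channels at 44.3 FPKM, Kcnt1 the ion-activated pores at 37.9, and Kcnf1 the silent modifiers at 31.3. The plot of levels in every library shows this spread within each role.

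**Figure D1:**
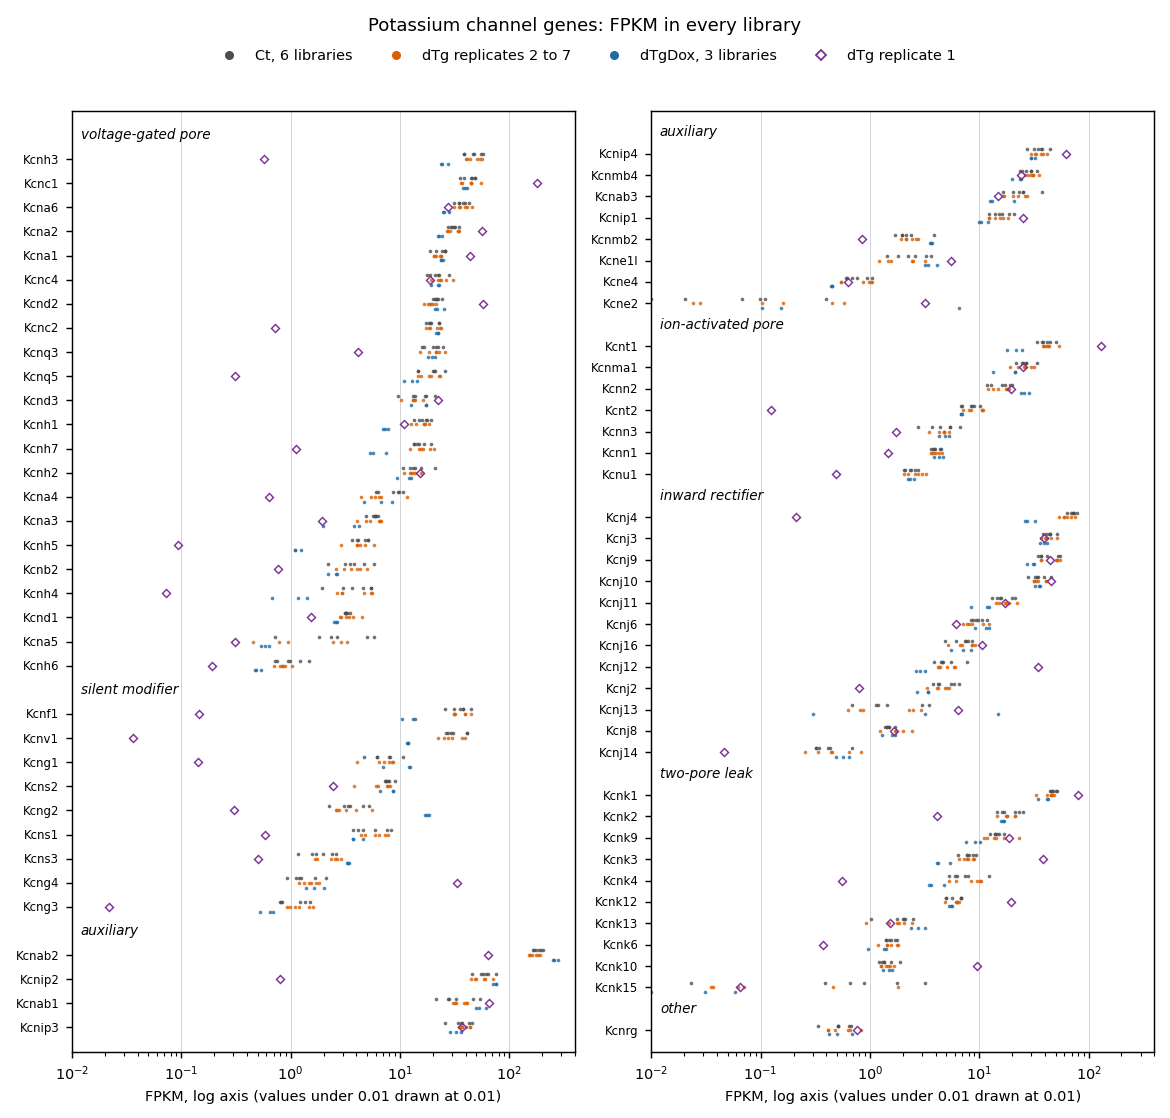
FPKM (log axis) of 73 of the potassium channel genes in each library, grouped by role and ordered by mean level; points are libraries of Ct, dTg replicates 2 to 7 and dTgDox, and the open diamond is dTg replicate 1. Most genes lie between 1 and 100 FPKM with the 12 Ct and dTg libraries close together, and the diamond is far to the left for Kcnv1, Kcnj4 and Kcnf1 and far to the right for Kcng4.

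Roles were represented unevenly. Of the annotated genes, 26 of 30 voltage-gated pores, 9 of 10 silent modifiers, 12 of 16 auxiliary subunits, 7 of 8 ion-activated pores, 12 of 15 inward rectifiers and 10 of 14 two-pore channels were members, and Kcnrg, a soluble regulator of Kv assembly, was the remaining one. The 17 genes under the floor included Kcnq1, Kcne1, Kcnj1, Kcna7 and Kcnk18. Just inside the floor, by third-highest FPKM, lay Kcne2 at 0.578, Kcnj14 at 0.649 and Kcnrg at 0.684. Just outside lay Kcnk5 at 0.472, Kcnq1 at 0.402 and Kcnmb1 at 0.320. In all 16 libraries 57 members were at or over 0.5 FPKM, and the other 20 were so in some only. Kcne2 reached it in dTg_6, dTgDox_3 and dTg_1 alone, so its membership rests on them.

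No potassium channel gene differed between dTg and Ct at the threshold. Of the 77 members 0 passed an adjusted p of 0.05 in limma, as did 0% of 19186 genes tested, and at an unadjusted p under 0.05 there were 2 members (2.6%) against 3.21% of all genes. In no member were the dTg values all above those of Ct (0.0782% of all genes) or all below (0.0573%). The median member difference was -0.003 on the scale of log2(FPKM + 0.5), against -0.004 over all genes. Differences ran from -0.82 for Kcnk15, a two-pore subunit, to 0.23 for Kcns3, a silent modifier.

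The members with unadjusted p under 0.05 were Kcnd2 and Kcnj4. Kcnd2, a pore of the dendritic A-type current, had a lowest, median and highest FPKM of 20.0, 21.7 and 24.2 in Ct and of 16.7, 19.1 and 21.5 in dTg. Its difference was -0.19 ± 0.07 (SE of the fit), with an adjusted p of 1. For Kcnj4 the values were 63.8, 71.9 and 78.1 FPKM in Ct and 54.1, 62.0 and 74.4 in dTg. This amounts to -0.17 ± 0.08, and the adjusted p was again 1. Both pairs of groups overlap. Among the members with the next smallest unadjusted p, from 0.08 to 0.157, were Kcns2, Kcnj8, Kcnk15, Kcna4, Kcnk1, Kcns3 and Kcnab2.

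The precision of this comparison varied among members. Kcnt1, the sodium-activated pore Slack, stood at 41.1 ± 5.92 FPKM in Ct (SD, n = 6) and 42.9 ± 5.39 in dTg (n = 6). The 95% interval of its difference was -0.16 to 0.29. Kcnn1, a small-conductance calcium-activated pore, had an interval of -0.16 to 0.16, and Kcnj10, the astrocytic inward rectifier that clears potassium, one of -0.23 to 0.21. Intervals were far wider for Kcnk15 (-1.78 to 0.14) and Kcna5 (-1.52 to 0.28). Members with an 8mer match to miR-211 lay between -0.10 (Kcnab2) and 0.10 (Kcnj14), with a median of -0.01, which is also the median of the 1085 tested genes that hold one. Of the 10, 6 were below 0.

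Within Ct and dTg_2 to dTg_7, the median coefficient of variation of members was 17.8%, against 14.3% over all genes tested. Among the least variable were Kcnn1 (8.42%), Kcnab2 (9.46%) and Kcna2 (9.49%). Most variable were Kcnk15 (127%), Kcne2 (114%), Kcna5 (69.0%) and Kcnj13 (58.7%). Kcna5, a delayed rectifier, was highest in Ct_4 (5.78 FPKM) and Ct_6 (5.01), followed by dTg_6 (3.27) and dTg_3 (2.90), and lowest in dTg_4 (0.457). Those 4 libraries were among the 5 with the highest mean log2 level of striatal medium spiny neuron markers, 5.72 in Ct_4, 5.84 in Ct_6, 4.96 in dTg_6 and 4.22 in dTg_3, and the list was at 2.47 to 2.55 in dTgDox. Kcnk15 was highest in Ct_1 (3.20 FPKM), dTg_3 (1.79) and Ct_5 (1.75), which also held the 3 highest levels of olfactory bulb markers, 5.22, 4.55 and 4.45. Kcnj13 and Kcne2, an inward rectifier and a beta subunit of transporting epithelia, stood at 15 and 6.57 FPKM in dTgDox_3, where choroid plexus markers had a mean log2 level of 4.52, against 0.301 to 3.45 and 0 to 0.578 in the other 14 libraries without dTg_1. The part of these tissues in the values was not tested. The plot of the 4 genes against marker lists gives every library.

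**Figure D2:**
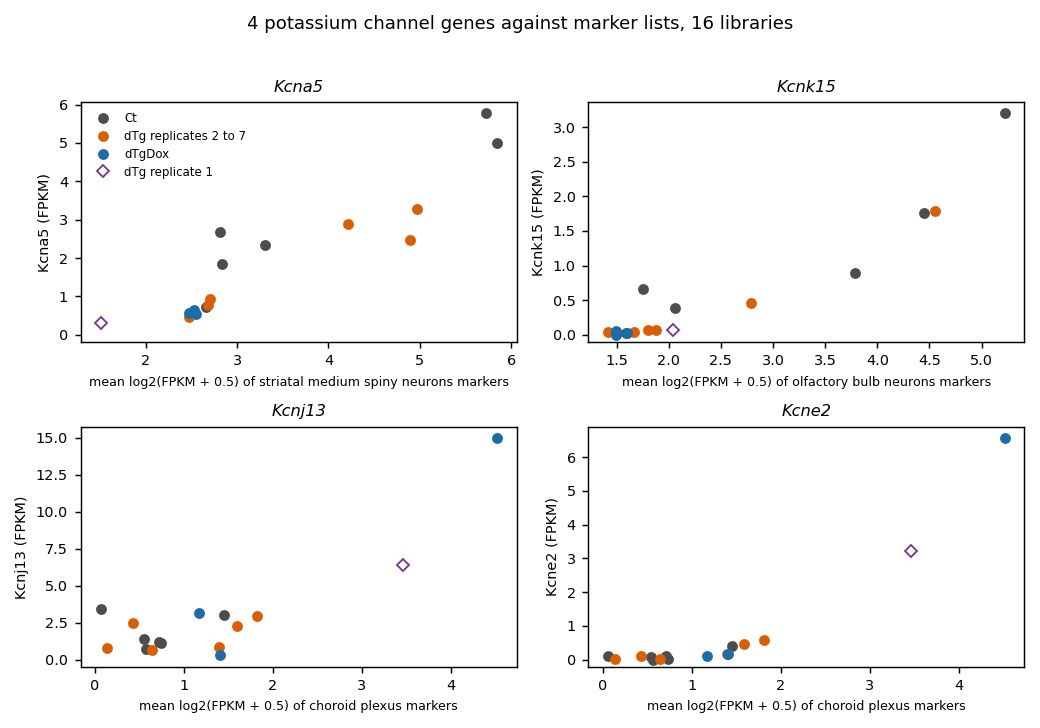
FPKM of Kcna5, Kcnk15, Kcnj13 and Kcne2 in the 16 libraries (y axis) against the mean log2(FPKM + 0.5) of the marker list named on each x axis; colours are groups and the open diamond is dTg replicate 1. The libraries with the most Kcna5 are Ct_4 and Ct_6, that with the most Kcnk15 is Ct_1, and Kcnj13 and Kcne2 are highest in dTgDox_3.

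After doxycycline, many potassium channel genes were lower than in dTg. Of the 77 members, 31 passed the threshold (40.3%), against 18.7% of all 19186 genes. There were 26 lower (33.8%, against 9.15% of all genes) and 5 higher (6.49%, against 9.59%), and the share of higher members is thus near that of all genes. The median difference was -0.20, against -0.005 over all genes. All 3 dTgDox values lay below all dTg values in 27 members (10.8% of all genes) and above them in 7 (11.3%). The marker differences given above (hippocampal, dentate, oligodendrocyte, GABA interneuron, astrocyte, microglial, endothelial, excitatory cortical, choroid plexus, cerebellar and olfactory bulb) move with this comparison. Of these, the olfactory bulb (1 of 10 lower) and cerebellar (2 of 13 lower) counts lie close to the 9.15% of all genes. The 10 striatal markers had a median difference of -0.99, with 0 of them above 0, and 0 passed the threshold. Within the excitatory cortical list the directions were mixed, with Tbr1 at -1.16 and Neurod6 at 1.05 on the log2 scale. The part of these cell types in the result was not tested.

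**Figure D3:**
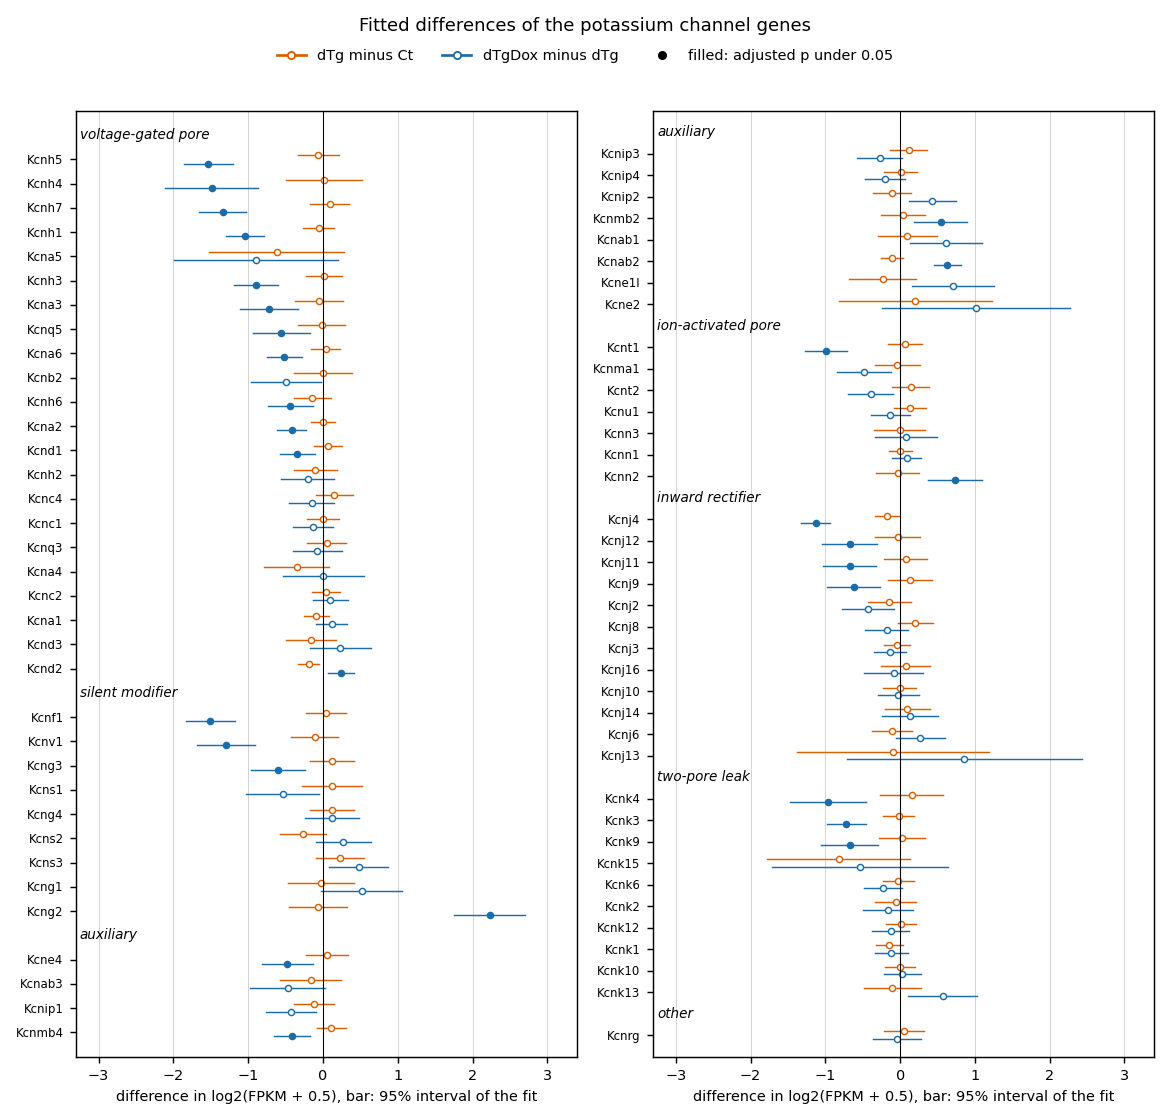
Difference in log2(FPKM + 0.5) with its 95% interval for 73 potassium channel genes in dTg against Ct (orange) and in dTgDox against dTg (blue), by role; filled points pass an adjusted p of 0.05. No orange point is filled, and the filled blue points run from -1.53 (Kcnh5) to 2.23 (Kcng2).

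Voltage-gated pores fell most often: 13 of 26 fell and 1 rose, with a median of -0.42, where 9.15% of all genes were lower and 9.59% higher. The Kcnh subfamily, pores of the EAG, ERG and ELK types, accounted for 6 of the 13, and Kcnh2, at -0.20 with an adjusted p of 0.434, was the 1 of its 7 members that did not pass. Kcnh5 (EAG type, chr12:74897220-75177332, minus strand) had a lowest, median and highest FPKM of 3.62, 4.49 and 5.13 in Ct and of 2.90, 4.19 and 5.82 in dTg, and 1.09, 1.24 and 1.10 in the 3 dTgDox libraries. All 3 lay below every value of Ct and of dTg_2 to dTg_7, and the difference from dTg was -1.53 ± 0.16 (adjusted p 1.12e-05). Kcnh1, the other EAG pore (chr1:192190774-192510159, plus strand), ran from 12.6 to 18.3 FPKM in dTg with a median of 16.6, and stood at 7.02, 7.29 and 7.74 in dTgDox. Its difference was -1.05 ± 0.12 (adjusted p 3.29e-05), again with no overlap.

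The ERG pore Kcnh7 (chr2:62693414-63184287, minus strand) ran from 12.4 to 20.3 FPKM in dTg, with a median of 16, and was at 5.66, 7.51 and 5.29 in dTgDox (-1.34 ± 0.15, adjusted p 2.82e-05). Kcnh3 and Kcnh4 are ELK pores of the forebrain. Kcnh3, the most abundant of the subfamily, ran from 40.0 to 56.0 FPKM in dTg and stood at 24.3, 27.5 and 23.8 in dTgDox (-0.89 ± 0.14, adjusted p 0.000409). Kcnh4 ran from 2.64 to 5.53 in dTg and stood at 0.679, 1.41 and 1.18 in dTgDox (-1.49 ± 0.29, adjusted p 0.0026). These groups did not overlap in any of the 3 genes. Kcnh6, an ERG pore under 1.5 FPKM in all 15 libraries, fell by 0.43, but its call was lost when any of 10 libraries was left out, with an adjusted p of up to 0.133 (without dTgDox_1).

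Kcnb2, a delayed rectifier, was at -0.50 with an adjusted p of 0.137. In the Kcna subfamily 3 of 6 fell, Kcna2, an axonal pore, by 0.42, Kcna6 by 0.52 and Kcna3 by 0.72. Kcna2 ran from 27.1 to 34.5 FPKM in dTg and stood at 24.1, 22.7 and 22.3 in dTgDox. Kcna1, its usual axonal partner, was at 23.5, 24.6 and 23.8 FPKM in dTgDox against 20.3 to 24.0 in dTg, with a 95% interval of -0.09 to 0.32. The call of Kcna3 was lost without dTgDox_2 (1.99 FPKM, against 3.83 and 4.20 in the others): there the adjusted p was 0.0821 and the difference -0.43, from -0.72.

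Of the Kcnq genes, which carry the M-current that limits repetitive firing, Kcnq3 was at -0.08 (95% interval -0.40 to 0.25). Kcnq5 fell by 0.56, with 12.9, 10.8 and 14.4 FPKM in dTgDox against 14.8 to 23.4 in dTg, but its call was lost without any of 10 libraries (adjusted p up to 0.171, without dTgDox_2). None of the Kcnc genes, pores of fast-spiking cells, passed, and Kcnc1, Kcnc2 and Kcnc4 were at -0.14, 0.10 and -0.15. Among Kcnd genes, Kcnd1 fell by 0.34 and Kcnd2 rose by 0.24, to 22.0, 25.2 and 20.8 FPKM, which overlap the dTg values and those of Ct. Both calls were lost without any of 9 and of 11 libraries, with adjusted p up to 0.129 (without dTgDox_3) and 0.235 (without dTgDox_2).

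Silent modifiers moved in both directions and held the highest difference of the family. Kcng2 (on chromosome 18) ran from 2.24 to 5.17 FPKM in Ct with a median of 3.4 and from 2.60 to 5.50 in dTg with a median of 2.99, and stood at 18.4, 16.8 and 17.5 in dTgDox. All 3 were over 3 times the highest value of any other library, and the difference was 2.23 ± 0.22 (adjusted p 9.79e-06). Kcnf1 (chr12:17172100-17176888, minus strand) went the other way: it ran from 31.3 to 44.5 FPKM in dTg with a median of 35.6 and stood at 13, 13.7 and 10.5 in dTgDox (-1.51 ± 0.15, adjusted p 1.16e-05). Kcnv1 (chr15:45106284-45114920, minus strand) ran from 22.2 to 39.5 in dTg with a median of 28.8 and stood at 11.9, 11.6 and 11.9 in dTgDox (-1.30 ± 0.18, adjusted p 0.00019). In both genes all 3 dTgDox values lay below every Ct and dTg value. Kcng3, near 1 FPKM, fell by 0.60, and this call was lost without any 1 of the 3 dTgDox libraries (adjusted p up to 0.0876, without dTgDox_2). The 5 that did not pass were Kcns1 at -0.53, Kcns2 at 0.27, Kcns3 at 0.48, Kcng1 at 0.52 and Kcng4 at 0.12. Of these, only Kcns3, at 3.25, 3.37 and 3.43 FPKM, lay wholly above dTg (1.66 to 2.86).

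**Figure D4:**
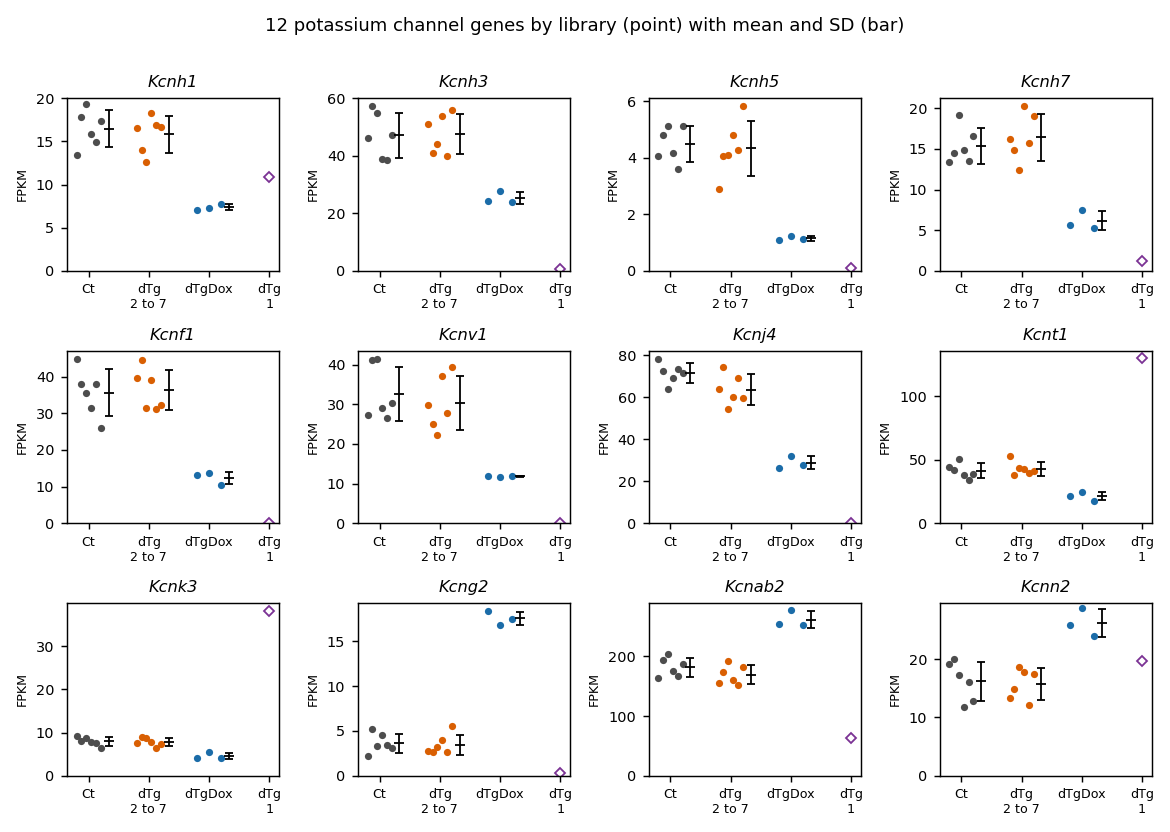
FPKM of 12 potassium channel genes (y axes start at 0) in each library of Ct, dTg replicates 2 to 7 and dTgDox, with the mean and SD beside each group, and dTg replicate 1 as an open diamond. The dTgDox points lie below all Ct and dTg points in the first 9 panels and above them for Kcng2, Kcnab2 and Kcnn2.

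Auxiliary subunits showed 2 higher and 2 lower of 12, where 9.59% of all genes were higher and 9.15% lower. Kcnab2 (chr4:152390742-152477871, minus strand) ran from 152 to 192 FPKM in dTg, with a median of 167, and stood at 255, 278 and 252 in dTgDox (0.63 ± 0.09, adjusted p 0.000153), and all 3 lay above every Ct value too (163 to 205). Kcnmb2, a subunit that inactivates Kcnma1 channels, rose by 0.54. It ran from 1.93 to 2.77 FPKM in dTg and from 1.69 to 3.83 in Ct and stood at 3.51, 3.71 and 3.65 in dTgDox, above dTg and overlapping Ct. That call was lost without any of 7 libraries (adjusted p up to 0.107, without dTgDox_3). Kcnmb4, the neuronal Kcnma1 subunit, fell by 0.41, with 23.5, 24.0 and 19.9 FPKM in dTgDox against 26.1 to 35.3 in dTg, and had an adjusted p of 0.106 without dTgDox_3. Kcne4 fell by 0.47 from under 1.1 FPKM, and was lost without any of 12 libraries (adjusted p up to 0.127, without dTgDox_3). The Kcnip genes, partners of Kcnd pores, did not pass: Kcnip2 was at 76.4, 75 and 70.8 FPKM against 44.2 to 71.3 in dTg (adjusted p 0.0508), and Kcnip1, Kcnip3 and Kcnip4 at -0.42, -0.28 and -0.20. Kcnab1, a second beta subunit, was at 52.5, 61.1 and 50.1 FPKM, above the 30.8 to 41.0 of dTg (0.61, adjusted p 0.0739).

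Among ion-activated pores, 1 of 7 fell and 1 rose, counts close to the shares of all genes (9.15% lower, 9.59% higher). Kcnt1 (chr2:25863734-25918273, plus strand) ran from 38.1 to 53.1 FPKM in dTg with a median of 41.8 and stood at 21.7, 24.6 and 17.8 in dTgDox, all below every Ct and dTg value (-0.99 ± 0.13, adjusted p 0.000111). Kcnn2, a small-conductance calcium-activated pore (on chromosome 18), ran from 12.1 to 18.7 FPKM in dTg and stood at 25.8, 28.7 and 24.0 in dTgDox, above every Ct and dTg value (0.73 ± 0.17, adjusted p 0.0071). Kcnn1 and Kcnn3 of the same subfamily were at 0.09 and 0.08. Kcnma1, the BK pore, was at 21.2, 13.4 and 21.1 FPKM against 19.1 to 32.0 in dTg (-0.48, adjusted p 0.0631). Kcnt2, the paralogue of Kcnt1, was at -0.39 (adjusted p 0.0671) and Kcnu1 at -0.13.

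Of 12 inward rectifiers 4 fell and 0 rose (9.15% and 9.59% of all genes). Kcnj4 (chr15:79483714-79505241, minus strand) ran from 54.1 to 74.4 FPKM in dTg with a median of 62.0 and stood at 26.3, 32.2 and 27.5 in dTgDox. The difference, -1.13 ± 0.09, had the smallest adjusted p of the family (1.71e-06). Kcnj12, another strong rectifier, fell by 0.67, Kcnj11, the pore of ATP-sensitive channels, by 0.67, and Kcnj9, a G protein-gated pore, by 0.62. Each of these 3 calls was lost without 1 library, while the difference stayed over 0.5 in size. Without dTgDox_3, Kcnj12 was at -0.62 (adjusted p 0.0657) and Kcnj9 at -0.55 (adjusted p 0.0860). Without dTgDox_1, which held its lowest value (8.35 FPKM, against 11.9 and 12.3), Kcnj11 was at -0.50 (adjusted p 0.0862). Kcnj10 was at 35.5, 36.0 and 32.1 FPKM, against 31.4 to 41.1 in dTg, with a 95% interval of -0.30 to 0.25. The other 7 did not pass either, and among them Kcnj3 and Kcnj6, G protein-gated pores like Kcnj9, were at -0.13 and 0.27 and Kcnj2 was at -0.43 (adjusted p 0.0856).

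Of 10 two-pore channels 3 fell and 0 rose (9.15% and 9.59% of all genes). Kcnk3, the acid-sensitive leak channel TASK-1 (chr5:30588170-30625271, plus strand), ran from 6.49 to 9.02 FPKM in dTg with a median of 7.79 and stood at 4.13, 5.41 and 4.19 in dTgDox (-0.72 ± 0.12, adjusted p 0.000826). Its relative Kcnk9 fell by 0.68, with 9.20, 7.63 and 10.2 FPKM in dTgDox against 11 to 22.9 in dTg, and had an adjusted p of 0.0779 without dTgDox_2. Kcnk4, a mechanosensitive channel, fell by 0.96, with 3.49, 4.75 and 3.61 FPKM in dTgDox against 5.33 to 10.4 in dTg, and its call was lost without dTgDox_1 (adjusted p 0.0604) or dTgDox_3. The other 7 did not pass. Among them were Kcnk1 and Kcnk2, the most abundant 2, at -0.12 and -0.17, Kcnk13 at 0.57 (adjusted p 0.0819), and Kcnk6, Kcnk10 and Kcnk12 at -0.23, 0.03 and -0.13.

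Summed over members of a role, the 3 dTgDox libraries lay below all 12 Ct and dTg libraries in 5 roles. Voltage-gated pores summed to 418 to 425 FPKM in dTgDox against 450 to 564, inward rectifiers to 170.0 to 182 against 218 to 254, silent modifiers to 66.3 to 73.3 against 78.4 to 118, two-pore channels to 79.5 to 87.5 against 99.8 to 114, and ion-activated pores to 80.7 to 87.9 against 93.6 to 121. Auxiliary subunits summed to 496 to 539.7 FPKM against 390 to 449, and Kcnab2 makes up 252 to 278 FPKM of the former. Abundant genes weigh most in the sums of the other roles too. Of 9 silent modifiers, 5 had a difference from dTg above 0 (median 0.12), while Kcnf1 went from a mean of 36.3 FPKM in dTg to 12.4 in dTgDox. Means in dTg and dTgDox were 42.9 and 21.4 FPKM for Kcnt1 and 63.5 and 28.7 for Kcnj4. The sum over all 77 members was 1332 to 1370.2 FPKM in dTgDox and overlapped the 1367 to 1605 of the other 12. Members with an 8mer showed 5 lower and 1 higher of 10 in this comparison, with Kcna2, Kcnh7, Kcnk3 and Kcnk9 among the 5 and Kcnab2 the 1. Of 20 members with a shorter, 7-base seed match and no 8mer, 5 were lower and 1 higher. Of the 47 members with none of the 3 seed matches searched, 16 were lower and 3 higher. Over all genes tested with a 3'UTR, 164 of 1085 with an 8mer were lower and 89 higher. Of 2709 with a 7-base match and no 8mer, 334 were lower and 270 higher, and 1034 of 10623 with no match were lower and 1153 higher.

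The comparison of dTgDox with Ct uses the same 3 dTgDox libraries, so it is no independent check, and its values are given beside those above. There 29 members passed (37.7%, against 19.6% of all genes), 23 lower (29.9%, against 9.77%) and 6 higher (7.79%, against 9.81%), with a median of -0.25. The dTgDox values lay below all Ct values in 31 members (11.7% of all genes) and above them in 6 (11.5%). In both comparisons 24 members passed. The difference was -1.59 for Kcnh5, -1.10 for Kcnh1, -1.47 for Kcnf1, -1.30 for Kcnj4, 2.16 for Kcng2 and 0.53 for Kcnab2. Passing only here were Kcns3 (0.71) and Kcnab1 (0.70), higher, and Kcnma1 (-0.51), Kcnip1 (-0.54) and Kcnj2 (-0.57), lower. Each of these 5 calls was lost in at least 1 fit that left out a library. Kcns3 was lost without dTgDox_3 alone, with a difference of 0.69 there (adjusted p 0.0570), and Kcnip1 and Kcnj2 without either of 2 libraries (adjusted p up to 0.1 and 0.124, without dTgDox_3). Kcnab1 was lost without any of 7 libraries and Kcnma1 without any of 11 (adjusted p up to 0.138 and 0.259, without dTgDox_2).

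Leaving out each of the 15 libraries in turn, 16 of the 31 calls against dTg held every time, 13 lower and 3 higher. The count fell to 20 without dTgDox_3 and to 21 without dTgDox_1 or dTgDox_2. Of the calls against Ct, 17 of 29 held every time, and the count fell to 20 without dTgDox_1. In 10 libraries chosen after seeing the data, without dTgDox_3 and the 4 libraries Ct_4, Ct_6, dTg_2 and dTg_6, 18 members passed against dTg, 13 of them lower. Kcng2, Kcnh1, Kcnab2 and Kcnt1 passed against dTg as reported and in all 32 alternatives.

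Genes whose products work with potassium channels but have other names were read from a list. Of 34 measured partners 0 differed between dTg and Ct, and 12 were lower and 2 higher in dTgDox than in dTg, with a median of -0.09, where 9.15% of all genes were lower and 9.59% higher. Dpp10, a membrane subunit of Kcnd channels, stood at 47.3 FPKM in dTg and 18.2 in dTgDox (-1.34 ± 0.14, adjusted p 1.05e-05), and Lrrc38, a gamma subunit of Kcnma1 channels, fell by 0.65 from 1.20 FPKM. The 2 higher were Dpp6, at 51.7 FPKM in dTg and 64.6 in dTgDox (0.32 ± 0.08, adjusted p 0.0116 in limma), and Amigo2 (1.17 ± 0.36, adjusted p 0.0347). Of 17 measured potassium pump and cotransporter genes 0 differed between dTg and Ct, and 3 were lower and 2 higher in dTgDox than in dTg, with a median of 0.02 against -0.005 over all genes. Against Ct, 13 partners were lower and 1 higher, and 3 pump and cotransporter genes were lower and 1 higher, where 9.77% of all genes were lower and 9.81% higher.

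In the library labelled dTg_1, 37 members lay below all 15 other libraries (48.1%, against 26.1% of all genes tested), 18 above (23.4%, against 28.7%) and 22 within their range. Kcnv1 was at 0.0361 FPKM against a mean of 27.5 in the 15 libraries, Kcnf1 at 0.145 against 31.3, Kcnj4 at 0.209 against 59.7, and Kcnh3 at 0.574 against 42.9. Kcnip2 was at 0.805 against 60.9. At the other end, Kcnc1 was at 178 FPKM against 42.8, Kcnt1 at 130.2 against 37.9, Kcng4 at 33.2 against 1.49, and Kcnj12 at 34.8 against 4.63. Kcnd2, Kcnk3, Kcnk10, Kcnk12 and Kcne1l were also above all 15. This is 1 library, so these are values with no test, and the cerebellar markers given above are high in it. With dTg_1 counted in dTg, 9 members passed between dTgDox and dTg, 3 higher and 6 lower.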

How the data were processed

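Per the labels' protocols, RNA with an RNA integrity number of 8 to 8.9 was made into single-end poly(A) libraries with 12 amplification rounds. The submitters' processing notes name TopHat2 and DESeq, without versions. The genome build and the quantifier were not given in the sources used here. The authors deposited 1 FPKM value per Ensembl gene, and whole reads could not be recovered, so exact depth is unknown. Gene symbols and coordinates are GENCODE M21 (GRCm38). Groups were compared in limma 3.58.1 (R 4.3.3) on log2(FPKM + 0.5), with trend and robust moderation, over 15 libraries and 19186 genes (0.5 FPKM or more in 3 or more of the 16). A call is a Benjamini-Hochberg adjusted p under 0.05 over all genes. Fold changes on this scale understate changes of low genes. A count model, planned in case of counts, was not used. On simulated data for dTgDox with dTg (19186 genes), 85 of 100 genes changed by 1 and 97 of 100 changed by 2 on the log2 scale were recovered. The changed genes were drawn from those with a mean log2(FPKM + 0.5) over 1. Noise was normal and independent, and no other gene changed, so recovery of lower genes was not simulated. Named genes were those that passed (the 15 highest and 15 lowest where over 30 passed), 10 by smallest unadjusted p where under 10 did, the most abundant of each subfamily and 10 fixed genes; other members were added to account for the family, after their values were seen. Counts cover all 77 members, but the values of 4 of them and of some other genes are not reported here. Members, lists and tests were chosen with earlier results of these data known. Alternatives covered library sets, pseudocount, filters, scaling, weights, moderation and pairing.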

Additional observations from a re-analysis of the deposited data

Results flagged for a closer look

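In 154 groups of 6 libraries (77 genes in Ct and in dTg_2 to dTg_7), 10 held a library set off from the rest by a gap of over 0.625 of the group's range (6.49%), where chance gives about 5%. Of these, 6 concern genes named above. In Ct, Kcnmb2 was at 3.83 FPKM and Kcnk4 at 12.3 FPKM in Ct_3, and Kcnj8, a pore of ATP-sensitive channels in vessels, was at 1.70 FPKM in Ct_5. In dTg, Kcnt1 was at 53.1 FPKM in dTg_2, and Kcna4, a pore of the A-type current, at 11.5 FPKM and Kcnk15 at 1.79 FPKM in dTg_3.

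In dTg_1, which the reported comparisons leave out and an alternative includes, 9 members reported here stood above every other library and at 2 or more times the mean of the 15. They were Kcng4 (33.2 FPKM), Kcnj12 (34.8), Kcnk10 (9.45), Kcnk3 (38.2), Kcnc1 (178), Kcnt1 (130.2), Kcnk12 (19.7), Kcnd2 (57.2) and Kcne1l (5.57).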

How the results depend on the processing

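Between dTg and Ct, 0 members were called, higher or lower, in any alternative. Leaving out 1 library at a time, dTgDox with dTg gave 20 to 32 calls (3 to 6 higher, 16 to 26 lower) and dTgDox with Ct 20 to 30 (3 to 6 higher, 16 to 25 lower). With all 16 distinct libraries, dTg_1 included, the counts were 9 (3 higher, 6 lower) and 6 (2 higher, 4 lower), and Kcnq5 reversed to 0.10 in dTgDox with dTg (limma adjusted p 0.961). Against dTg, the higher count was 3 in 13 libraries (without Ct_2 and dTg_7), 3 with no filter, 3 with dTg_5 to dTg_7 averaged and 9 with quality weights. It was 9 with Ct and dTg limited to header numbers in the 600s, where the lower count against Ct was 14. The dTgDox libraries, whose headers hold no such number, were all kept in that fit. The averaging and the choice of the 600s were made after seeing the data, as was that of the 10 libraries without dTgDox_3, Ct_4, Ct_6, dTg_2 and dTg_6, which gave 18 calls (13 lower) against dTg and 17 (13 lower) against Ct. Over all genes, calls against dTg were 3595 in the reported analysis, 1537 with all 16 libraries, 1591 with those 10, 2133 without dTgDox_1 and 2215 without dTgDox_3; against Ct they were 3757, 1504, 1574, 2287 and 2337, and 2236 with the 600s. The cause of these changes was not tested.

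With the replicate number as a block, 15 members were called against dTg (2 higher, 13 lower), 3 were higher against Ct, and 1558 and 2382 genes were called over all. Residuals of 10 same-numbered pairs correlated at -0.181 to 0.079. This gives no sign that the numbers pair the samples, but so few pairs cannot exclude it. Low FPKM values, under about 1, are the least precise, since reads could not be recovered.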
